A study of Sus scrofa with 8 samples.

Results

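The genes described here are 7 chemokines (CXCL2, CXCL12, CXCL14, CXCL16, CX3CL1, CCL2 and CCL5), the cytokine IL6, and NFKBIA and TNFAIP3, which restrain the transcription factor NF-kB. They were chosen by gene name, make up 10 of the 30550 genes in the deposited table, and were all found in it. RNA from the right ventricle of the pig heart (Sus scrofa) was sequenced in 2 groups of 4 libraries each. In the PKP2_het group the animals carry a heterozygous knockout of PKP2, and in the WT group they are wild type. PKP2 codes for plakophilin 2, which belongs to the desmosomes that hold heart muscle cells together, and the knockout is presented as a model of arrhythmogenic cardiomyopathy. The sources used here do not give how the knockout was made, or the strain and age of the pigs. They do not state that libraries are from separate animals, and p-values therefore measure only the variation among 8 libraries, which may be partly technical.

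Chemokines are small secreted proteins that draw leukocytes along a gradient by binding receptors on their surface, and several are held on vessel walls by glycosaminoglycans. CXCL2 attracts neutrophils, CCL2 attracts monocytes, CCL5 attracts T cells, and CXCL12 is made by stromal and vascular cells in healthy tissue. NF-kB waits in the cytoplasm bound to IkB-alpha, the product of NFKBIA. Signals such as TNF or interleukin 1 destroy IkB-alpha, and NF-kB then switches on CXCL2, CCL2, IL6 and also NFKBIA and TNFAIP3, which close the loop. In arrhythmogenic cardiomyopathy inflammatory signalling and NF-kB have been studied in heart muscle cells.

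The libraries held between 23637697 and 31313628 fragments assigned to genes. PKP2 itself was at 45.4, 40.7, 24.6 and 45.9 FPKM (fragment counts per gene length, scaled by a factor for each library) in PKP2_het replicates 1 to 4. Its WT levels were 52.9, 62.2, 61.1 and 72.8 FPKM in replicates 1 to 4. The groups did not overlap, with an exact permutation p of 0.0286, the smallest that 70 relabellings can give. Over all genes tested the limma adjusted p was 0.164. PKP2_het replicate 3 stood apart from the other libraries. Mitochondrially encoded transcripts took 52.1% of its fragments assigned to genes, against 21.1% to 37.6% in the other 7 libraries. Although the labels give cardiomyocytes as cell type, RNA was extracted from tissue. Cardiomyocyte markers summed to between 21908 and 32401 FPKM in PKP2_het and between 22867 and 26266 FPKM in WT. Endothelial markers (265 to 607 FPKM) and macrophage markers (23.96 to 64.1 FPKM) were present in every library.

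None of the chemokine, IL6 and NF-kB inhibitor genes was called different between PKP2_het and WT tissue. A gene was tested where it reached 1 FPKM in at least 4 of the 8 libraries, and called where limma on log2(FPKM + 1) gave an adjusted p below 0.05 over all tested genes. IL6 and TNFAIP3 did not reach that level, and 0 of the remaining 8 genes were called, against 1.86% of the 10757 genes tested. With limma 1 gene, CXCL2, had an unadjusted p below 0.05, and the same held for limma's voom method on the fragments recovered from the table, which also called 0. Over all genes tested, 12.8% had such an unadjusted p. Groups that did not overlap were found for 0 of the 10 genes, against 9.19% of the genes tested. Of the 8 tested log2 fold changes, 3 were positive and 5 negative.

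**Figure D1:**
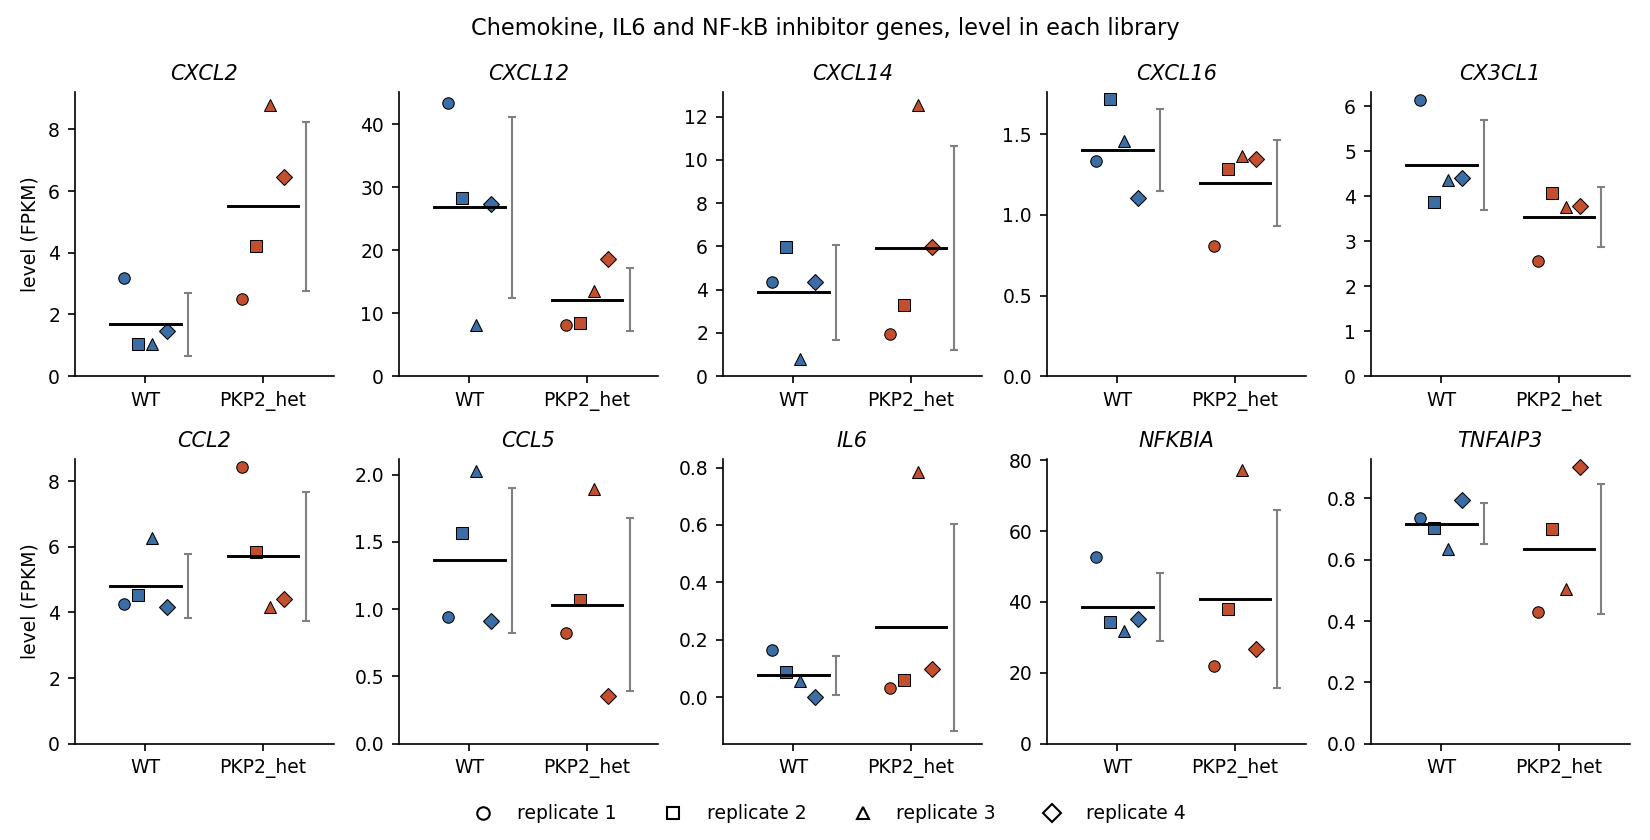
Level of each of the 10 genes in FPKM (vertical axis, 1 panel per gene with its own scale) in the 4 WT libraries (blue) and the 4 PKP2_het libraries (red). Symbols give the replicate number, black lines the group mean and grey bars 1 SD either side, which for IL6 reaches below 0. The CXCL2 mean is 3.27 times higher in PKP2_het but WT replicate 1 lies above PKP2_het replicate 1, and a single PKP2_het library is far above the others for IL6 and NFKBIA.

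FPKM are scaled by gene length, so the levels of these genes can be set in order. NFKBIA had the highest level, with a mean of 39.7 FPKM over the 8 libraries, and lay above CXCL12 in 8 of 8. CXCL12 followed at 19.5 FPKM and was above CCL2 in 7 of 8 libraries. CCL2 (5.26 FPKM), CXCL14 (4.90 FPKM), CX3CL1 (4.11 FPKM) and CXCL2 (3.59 FPKM) formed a middle group without a stable order, since each was above the next in 3, 3 and 5 of 8 libraries. CXCL16 (1.30 FPKM) and CCL5 (1.20 FPKM) could not be separated either, with CXCL16 higher in 5 of 8. TNFAIP3 averaged 0.676 FPKM and IL6 0.160 FPKM.

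CXCL2 had the largest log2 fold change of the 8 tested genes. It is a neutrophil attractant that signals through CXCR2, and its gene spans bases 70157253 to 70159145 of chromosome 8 in Sscrofa11.1, the build of all positions given here. In PKP2_het replicates 1 to 4 its level was 2.51, 4.23, 8.80 and 6.47 FPKM, and in WT replicates 1 to 4 it was 3.197, 1.04, 1.04 and 1.46 FPKM. Thus 3 of the 4 PKP2_het libraries lay above every WT library, and the lowest PKP2_het library lay between WT replicate 1 and the other WT libraries. The PKP2_het mean of 5.501 ± 2.73 FPKM (SD, n = 4) was 3.27 times the WT mean of 1.68 ± 1.03 FPKM (SD, n = 4). On the log2(FPKM + 1) scale the difference was 1.24 with a standard error of 0.33 (95% interval 0.50 to 1.98), and its limma adjusted p was 0.115. The exact permutation p was 0.0571, and 0.286 after Benjamini-Hochberg adjustment over the 10 genes. Between 34 and 226 fragments per library stood behind these values. Weighting the libraries by their spread gave a limma adjusted p of 0.0141 for CXCL2, whereas the other 19 alternative settings gave adjusted values from 0.0505 to 0.309.

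CXCL2 belongs to a row of related CXC chemokine genes, and the neighbours were read together with it because fragments from near-identical copies can be assigned to the wrong one. The sources used here do not give how such fragments were treated. LOC102157763 lies just before CXCL2, from 70145049 to 70147973, and is annotated as a pseudogene whose closest protein is growth-regulated alpha protein. The annotation gives growth-regulated protein alpha, from another species, as the closest protein of CXCL2 and LOC100525396 as well. It was singled out after its values were seen. Its level was 0.912, 0.682, 2.88 and 2.05 FPKM in PKP2_het replicates 1 to 4 and 0.772, 0.383, 0.361 and 0.4996 FPKM in WT replicates 1 to 4. As for CXCL2, PKP2_het replicates 3 and 4 were the highest libraries and WT replicate 1 the highest WT library. The ratio of means was 3.23 and the exact permutation p was 0.0571. CXCL8, the gene for interleukin 8, lies further along the same row, from 69932646 to 69935861. It had 2, 8, 10 and 7 fragments in PKP2_het and 1, 2, 3 and 2 in WT, or 35 in all, with an exact permutation p of 0.0571 on log2(FPKM + 1). PKP2_het replicate 1 was inside the WT range, as for CXCL2, and the other PKP2_het libraries were above it. LOC100525396, annotated as similar to growth-regulated protein gamma, gave 0.486 ± 0.229 FPKM (SD, n = 4) in PKP2_het and 0.432 ± 0.238 FPKM in WT, with an exact permutation p of 0.771. The other genes of the row were sparse. LOC100520680, annotated as platelet factor 4, had 0, 0, 4 and 5 fragments in PKP2_het and 16, 2, 0 and 2 in WT, with an exact permutation p of 0.800, and PPBP and AMCF-II had 4 and 6 fragments in all.

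**Figure D2:**
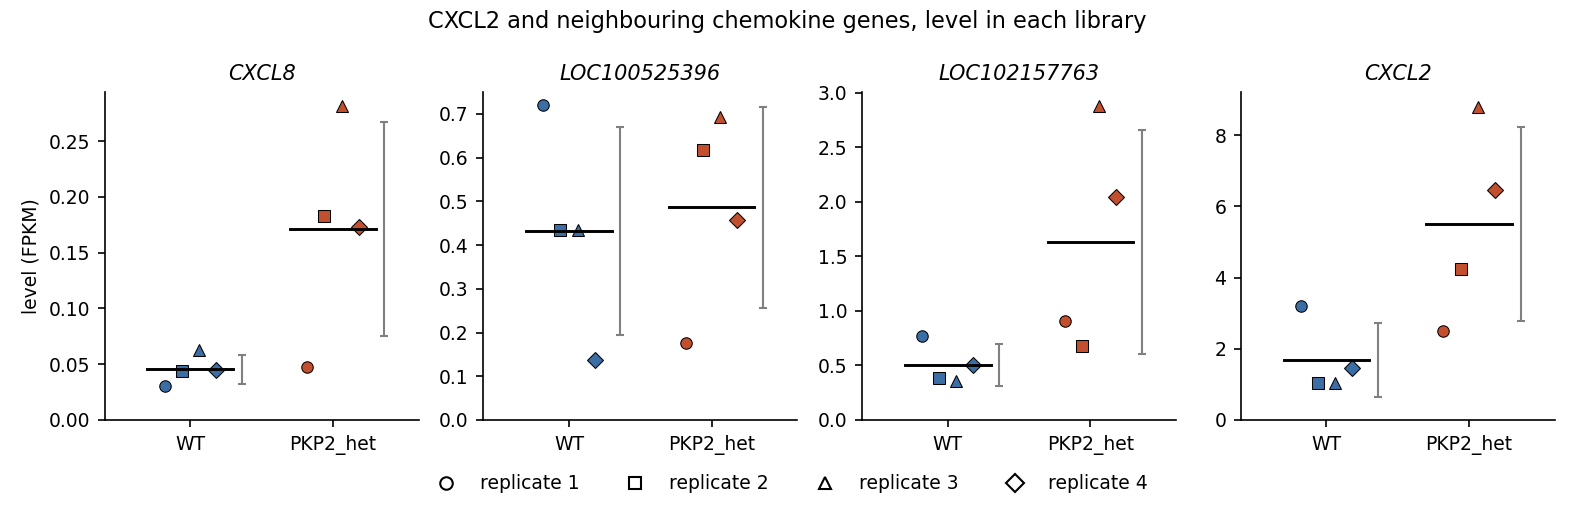
Level in FPKM (vertical axis, own scale per panel) of CXCL2 and 3 related genes on the same chromosome in each WT (blue) and PKP2_het (red) library, with the mean as a black line and 1 SD either side as a grey bar. CXCL2, LOC102157763 and CXCL8 are each higher in PKP2_het replicates 3 and 4 than in any WT library, and LOC100525396 is spread alike in both groups.

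The receptor for CXCL2 and the markers of neutrophils and mast cells were near the lower end of detection. CXCR2 was at 0.0746 ± 0.0351 FPKM (SD, n = 4) in PKP2_het and 0.220 ± 0.172 FPKM in WT, and the groups overlapped. The summed neutrophil and mast cell markers were 1.10, 2.72, 1.71 and 1.71 FPKM in PKP2_het and 4.74, 4.70, 3.02 and 2.79 FPKM in WT. They were lower in all PKP2_het libraries than in any WT library, though narrowly, with 2.72 FPKM against 2.79 FPKM at the nearest. Of all single genes tested, 9.19% had groups without overlap. The group means were in the opposite order to those of CXCL2. Within groups this sum and CXCL2 were not opposed, with r = 0.295 in PKP2_het and 0.435 in WT over 4 libraries each. KIT and MS4A2, both mast cell genes, and CSF3R, the receptor for granulocyte colony-stimulating factor, made up most of that sum. Of the 9 listed genes found, 6 stayed under 1 FPKM in every library, among them MPO, which was at 0 in all 8. Other leukocyte lists leaned the same way, but their sums overlapped between the groups. Log2 fold changes were negative for 10 of 10 tested macrophage genes, 3 of 3 T and NK genes and 1 of 1 B and plasma gene, with 0 called. Over all tested genes 54.3% were negative. In bulk tissue fewer cells of a type and less RNA per cell cannot be told apart.

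CXCL12, the ligand of CXCR4 and ACKR3, retains stem and immune cells and guides vessel growth. It lies on chromosome 14 from 91516383 to 91543857. Its level was 8.04, 8.48, 13.5 and 18.6 FPKM in PKP2_het replicates 1 to 4 and 43.3, 28.3, 8.14 and 27.3 FPKM in WT replicates 1 to 4. All PKP2_het libraries lay below WT replicates 1, 2 and 4, while WT replicate 3 was as low as the lowest PKP2_het libraries. The PKP2_het mean of 12.2 ± 4.96 FPKM (SD, n = 4) was 45.4% of the WT mean of 26.8 ± 14.4 FPKM. CXCL12 had a log2 fold change of -0.95 ± 0.45 (SE) with a 95% interval from -1.95 to 0.06, a limma adjusted p of 0.421 and an exact permutation p of 0.171. Leaving out 1 WT library moved it both ways, to -1.41 without WT replicate 3 (limma adjusted p = 0.0597) and to -0.65 without WT replicate 1 (limma adjusted p = 0.615).

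The receptors of CXCL12 were measured in the same tissue. CXCR4, a signalling receptor on leukocytes and endothelium, was at 1.59 ± 0.426 FPKM (SD, n = 4) in PKP2_het and 2.86 ± 1.10 FPKM in WT, and had a log2 fold change of -0.54 ± 0.21 (SE) and a limma adjusted p of 0.295. ACKR3, which takes up CXCL12 without signalling through G proteins, had 6.80 ± 2.81 FPKM and 7.27 ± 1.90 FPKM. Its log2 fold change was -0.12 ± 0.26 (SE), with a limma adjusted p of 0.858.

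CXCL14, a chemokine made by epithelial and stromal cells, lies on chromosome 2 from 137803988 to 137813118. Its level was 1.94, 3.30, 12.5 and 5.97 FPKM in PKP2_het and 4.35, 5.98, 0.809 and 4.35 FPKM in WT. The highest library was PKP2_het replicate 3 and the lowest WT replicate 3, and the remaining libraries of both groups overlapped. CXCL14 had a log2 fold change of 0.43 ± 0.51 (SE), a limma adjusted p of 0.747 and an exact permutation p of 0.543. It ranged from 0.01 without WT replicate 3 and 0.03 without PKP2_het replicate 3 to 0.66 without WT replicate 2 and 0.76 without PKP2_het replicate 1.

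CXCL16 and CX3CL1 are the chemokines that are made as membrane proteins, with a mucin stalk that proteases cut to release the soluble form. CX3CL1 (fractalkine, chromosome 6 from 19312351 to 19324439) sits on endothelium and neurons and binds CX3CR1 on monocytes and natural killer cells. Its level was 2.55, 4.07, 3.75 and 3.77 FPKM in PKP2_het and 6.13, 3.87, 4.36 and 4.395 FPKM in WT. The PKP2_het libraries lay below 3 of the 4 WT libraries and overlapped with WT replicate 2. For CX3CL1 the log2 fold change was -0.32 ± 0.15 (SE; 95% interval -0.67 to 0.02), with a limma adjusted p of 0.418. The exact permutation p was 0.0571, and 0.286 adjusted over the 10 genes. The log2 fold change was -0.21 without PKP2_het replicate 1 and also without WT replicate 1. CXCL16 (chromosome 12 from 52145100 to 52150267), the ligand of CXCR6 and a scavenger receptor for oxidised lipoprotein, was at 0.804, 1.28, 1.37 and 1.35 FPKM in PKP2_het and 1.33, 1.72, 1.46 and 1.11 FPKM in WT. PKP2_het replicate 1 was the lowest library, and the other PKP2_het libraries lay inside the wider WT range. Its log2 fold change was -0.13 ± 0.12 (SE), with a limma adjusted p of 0.685 and an exact permutation p of 0.371. It was -0.04 without PKP2_het replicate 1 and -0.07 without WT replicate 2.

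Of the enzymes that release these membrane chemokines, ADAM10 was at 10.1 ± 2.18 FPKM (SD, n = 4) in PKP2_het and 14.5 ± 2.05 FPKM in WT. For ADAM10 the log2 fold change was -0.50 ± 0.16 (SE), with a limma adjusted p of 0.207. ADAM17, the sheddase also known for releasing TNF, had a log2 fold change of -0.09 ± 0.11 (SE). The receptors CX3CR1 and CXCR6 stayed below 1 FPKM in all libraries.

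CCL2 and CCL5 are CC chemokines on chromosome 12. CCL2, from 40798109 to 40800013, recruits monocytes through CCR2. Its level was 8.43, 5.84, 4.17 and 4.399 FPKM in PKP2_het and 4.25, 4.54, 6.27 and 4.17 FPKM in WT. PKP2_het replicate 1 was the highest library, and the others of both groups lay between 4.17 and 6.27 FPKM. For CCL2 the log2 fold change was 0.18 ± 0.20 (SE), with a limma adjusted p of 0.734 and an exact permutation p of 0.629. It was 0.0014 without PKP2_het replicate 1, and 0.27 to 0.29 without PKP2_het replicate 3 or 4 or WT replicate 3. With every library rescaled to an equal FPKM sum it was -0.03, against a median of -0.23 for all genes on that scale and -0.02 as deposited. CCL5, from 39652731 to 39659121, is made mainly by T and natural killer cells. It was at 0.824, 1.07, 1.89 and 0.352 FPKM in PKP2_het and 0.940, 1.57, 2.03 and 0.913 FPKM in WT. Both groups held low and high libraries, and 7 to 48 fragments stood behind each value. CCL5 had a log2 fold change of -0.24 ± 0.23 (SE), a limma adjusted p of 0.695 and an exact permutation p of 0.486. It was -0.06 without PKP2_het replicate 4, -0.11 without WT replicate 3 and -0.43 without PKP2_het replicate 3. CCR2 was below 1 FPKM in all libraries.

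IL6, a cytokine of the acute phase response, lies on chromosome 9 from 91506421 to 91510830. It was barely detected, with 1, 2, 21 and 3 fragments in PKP2_het replicates 1 to 4 and 4, 3, 2 and 0 in WT replicates 1 to 4. PKP2_het replicate 3 held 21 of the 36 fragments, and the other 7 libraries were alike. Its levels were 0.0316, 0.0604, 0.783 and 0.0982 FPKM in PKP2_het and 0.163, 0.0875, 0.0550 and 0 FPKM in WT, with an exact permutation p of 0.571. No difference between the groups was detectable at this depth. The receptor chains were better measured. IL6R, which binds IL6, was at 2.92 ± 1.03 FPKM (SD, n = 4) in PKP2_het and 2.57 ± 0.228 FPKM in WT, and IL6ST, the shared signalling chain gp130, at 13.2 ± 1.02 FPKM and 15.4 ± 2.23 FPKM. Their limma adjusted p-values were 0.833 and 0.550.

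NFKBIA, on chromosome 7 from 64508119 to 64510754, varied more within groups than between them. Its level was 22.0, 37.9, 77.2 and 26.6 FPKM in PKP2_het and 52.8, 34.3, 31.8 and 35.1 FPKM in WT. PKP2_het held both the lowest and the highest libraries, and WT replicate 1 lay above the rest of its group. For NFKBIA the log2 fold change was -0.06 ± 0.35 (SE; 95% interval -0.83 to 0.72), with a limma adjusted p of 0.960 and an exact permutation p of 0.943. Leaving out PKP2_het replicate 3 moved it to -0.41, with a limma adjusted p of 0.390, and leaving out PKP2_het replicate 1 moved it to 0.18. TNFAIP3, on chromosome 1 from 26474158 to 26489771, encodes A20, an enzyme that edits ubiquitin chains on NF-kB signalling proteins. It was at 0.431, 0.700, 0.504 and 0.903 FPKM in PKP2_het and 0.737, 0.705, 0.634 and 0.795 FPKM in WT. The WT libraries lay close together inside the wider PKP2_het range, and the exact permutation p was 0.429.

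**Figure D3:**
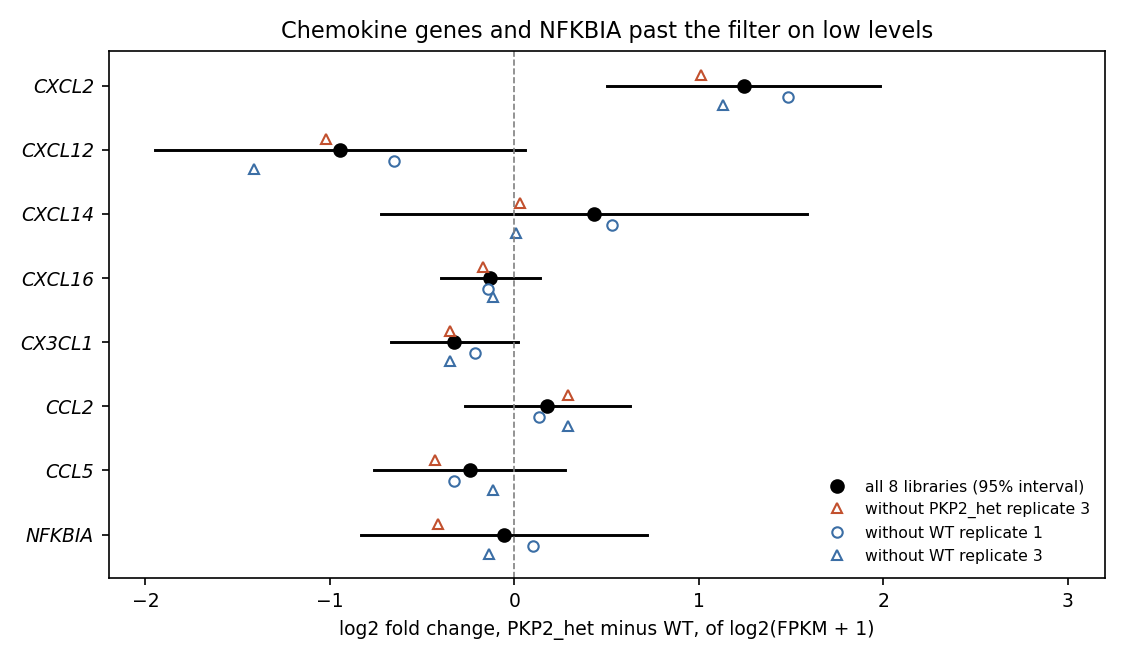
Log2 fold change of the 8 tested genes (horizontal axis, PKP2_het minus WT on log2(FPKM + 1), rows are genes), with the 95% limma interval from all 8 libraries in black and open symbols for the fit without 1 named library. The CXCL2 interval, 0.50 to 1.98, lies above 0 before adjustment over all genes, and the NFKBIA and CXCL14 values shift in either direction depending on the library left out.

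Several of these genes varied widely between libraries of the same group. The within-group SD of log2(FPKM + 1) was 0.91 for CXCL14, 0.79 for CXCL12, 0.60 for NFKBIA and 0.57 for CXCL2, against a median of 0.20 over all genes tested. Those SDs were larger than the SDs of 99.5%, 99.1%, 97.5% and 97.2% of tested genes. CCL5 (89.6%) and CCL2 (81.7%) were also in the upper part, whereas CX3CL1 (62.0%) and CXCL16 (38.6%) were ordinary. These percentages describe spread and do not test a difference.

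The variation between libraries was set beside 12 measures of cell type, immediate early genes and mitochondrial share, giving 120 relations over 8 libraries. After Benjamini-Hochberg adjustment, 0 passed 0.05, and 16 had an unadjusted exact p of r below 0.05. CXCL12 and the summed adipocyte list had r = 0.929 (exact permutation p = 0.00233, adjusted 0.131) and rho = 0.929 (exact permutation p = 0.00223, adjusted 0.268). Leaving out the 2 farthest libraries, r was 0.897. That sum was 17.3, 19.7, 94.8 and 65.8 FPKM in PKP2_het and 179, 118, 11.4 and 123 FPKM in WT, so WT replicate 3 was low for both. A single gene, FABP4, which fat cells and capillary endothelium both express, made up between 60.7% and 98.4% of it. With the other 4 adipocyte genes alone, r was 0.104 (exact permutation p = 0.804) and rho 0.238 (exact permutation p = 0.582), a split chosen after the values were seen. With the endothelial sum CXCL12 had r = 0.811 (exact permutation p = 0.0187, adjusted 0.263) and rho = 0.857 (exact permutation p = 0.0107, adjusted 0.416), and r was 0.629 without the 2 farthest libraries.

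CCL2 moved in the opposite sense to the endothelial sum, led by PECAM1, VWF and CLDN5. Its r was -0.885 (exact permutation p = 0.00156, adjusted 0.131) and rho -0.833 (exact permutation p = 0.0154, adjusted 0.416), and r was -0.872 without the 2 farthest libraries. The endothelial sum was 265, 324, 555 and 402 FPKM in PKP2_het and 607, 479, 318 and 430 FPKM in WT. PKP2_het replicate 1, the highest for CCL2, was the lowest for it. CXCL2 had r = 0.746 (exact permutation p = 0.0261, adjusted 0.263) and rho = 0.571 (exact permutation p = 0.151, adjusted 0.526) with the mitochondrial share, and r was 0.610 without PKP2_het replicate 3 and WT replicate 1. For NFKBIA and the mitochondrial share r was 0.751 (exact permutation p = 0.0310, adjusted 0.286) and rho 0.262 (exact permutation p = 0.536, adjusted 0.776). Without the same libraries r was -0.579, so this relation rests on those libraries. With the endothelial sum NFKBIA had r = 0.774 (exact permutation p = 0.0205, adjusted 0.263) and rho = 0.762 (exact permutation p = 0.0368, adjusted 0.416). That r was 0.617 without the 2 farthest libraries. The relations named were chosen after their values were seen. The part of tissue composition in the levels of these chemokines was not tested.

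**Figure D4:**
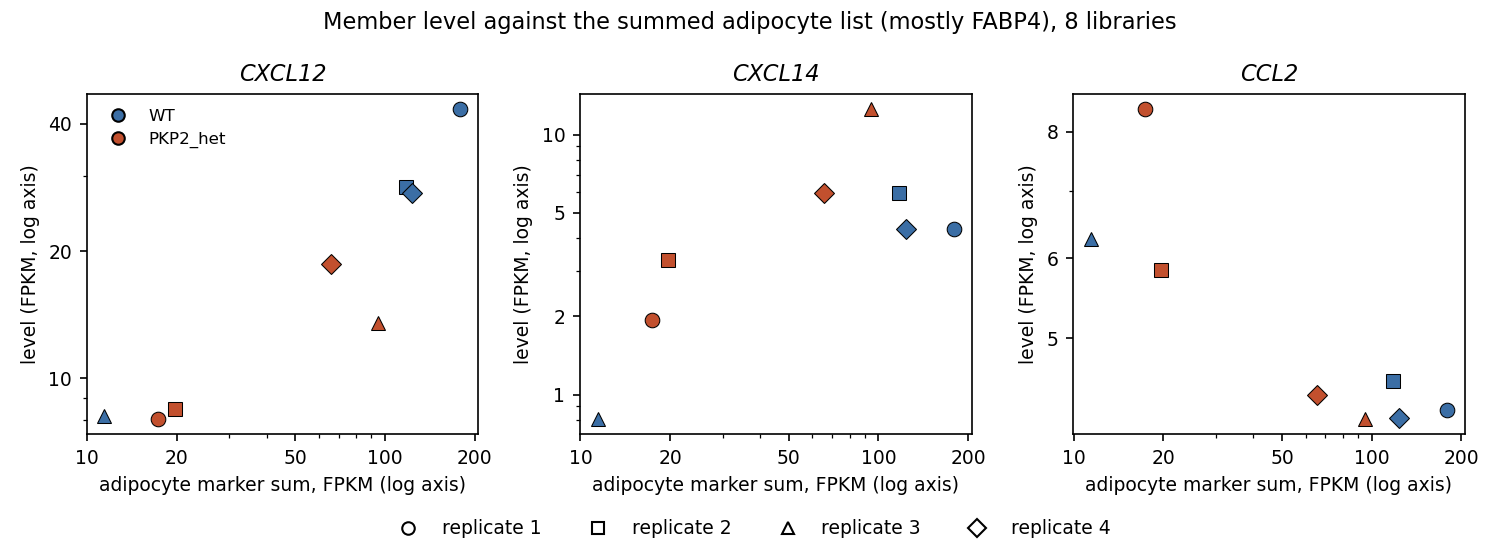
Level of CXCL12, CXCL14 and CCL2 (vertical log axes, FPKM) against the summed adipocyte list, which is mostly FABP4 (horizontal log axis, FPKM), 1 symbol per library in the same symbols by replicate, WT in blue and PKP2_het in red. CXCL12 is at 8.14 FPKM in WT replicate 3, which has the lowest sum, and at 43.3 FPKM in WT replicate 1, which has the highest, and CCL2 is highest in the libraries with the lowest sums.

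For the highest of the chemokine and NF-kB genes, NFKBIA, CXCL12 and CCL2, the tested genes with the most similar pattern over the 8 libraries were found by Pearson's r of log2(FPKM + 1). These are the largest of 10757 values each and are descriptions. Closest to NFKBIA were PXN (paxillin, a protein of focal adhesions, r = 0.980), ACIN1 (an RNA-binding nuclear protein, 0.978) and LOC100513362 (0.973). Closest to CXCL12 were GGTA1P (0.984), CYSLTR2 (a leukotriene receptor, 0.973) and IFNAR1 (a chain of the type I interferon receptor, 0.970). Closest to CCL2 were DCTPP1 (a nucleotide pyrophosphatase, 0.983), DKK3 (a secreted glycoprotein, 0.962) and ATP23 (0.962). DKK3 had the widest range among them, with 37.1, 12.4, 4.32 and 4.10 FPKM in PKP2_het and 2.31, 4.10, 26.3 and 3.09 FPKM in WT. PKP2_het replicate 1 and WT replicate 3, the highest libraries of their groups for CCL2, were again the highest.

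The surrounding pathway was described with 8 lists holding 174 genes, of which 165 were in the table and 96 were tested. In 7 of these lists limma and voom each called 0 genes, and 1 gene was called in the list of NF-kB targets, where 1.86% of all tested genes were called. Unadjusted limma p-values below 0.05 were found for 2 of 3 chemokine receptors, 1 of 8 other chemokines, 1 of 8 other cytokines and 1 of 11 genes of IL-6 family signalling. The corresponding counts were 1 of 24 NF-kB core genes, 1 of 17 other NF-kB inhibitors, 2 of 12 NF-kB targets and 3 of 13 shedding and glycosaminoglycan genes. Over all tested genes the share was 12.8%. In voom the target count was 3 and the other counts were equal to these.

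ACKR1, the Duffy antigen receptor that binds inflammatory chemokines such as CCL2 and CCL5 on venules without signalling, was at 11.6, 3.80, 19.1 and 9.60 FPKM in PKP2_het and 7.41, 1.598, 2.93 and 2.08 FPKM in WT. As for CXCL2, PKP2_het replicate 3 was the highest library and WT replicate 1 the highest WT library, and the groups overlapped. Its log2 fold change was 1.401 ± 0.46 (SE), with a limma adjusted p of 0.213. Of the 20 chemokine receptors in the table, 17 did not pass the filter.

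Among the other chemokines, 2 of 8 tested log2 fold changes were positive and 6 negative, with a median of -0.23 against -0.02 for all genes. Without PKP2_het replicate 3 the median was -0.36, against 0.007 for all genes. CCL26 (eotaxin 3, an eosinophil attractant) was at 20.2, 19.3, 25.9 and 7.01 FPKM in PKP2_het and 4.50, 0.901, 9.35 and 0.984 FPKM in WT. It lay above all WT libraries in 3 PKP2_het libraries, and the fourth was below WT replicate 3. CCL26 had a log2 fold change of 2.19 ± 0.57 (SE) and a limma adjusted p of 0.108, and it was called with library weights (adjusted p 0.0354), with the replicate block (0.0401) and without WT replicate 3 (0.0353). CCL4 and CXCL10 had log2 fold changes of -0.49 ± 0.23 (SE) and -0.29 ± 0.26 (SE), with limma adjusted p-values of 0.425 and 0.679. The CXCL10 value was -0.04 without WT replicate 1, and -0.44 without PKP2_het replicate 3 or WT replicate 2. Of the 8 other cytokines 6 were positive and 2 negative, with a median of 0.07, and without PKP2_het replicate 3 only 3 were positive, with a median of -0.04. CSF1, the macrophage growth factor, had a log2 fold change of 0.28 ± 0.11 (SE) with a limma adjusted p of 0.321.

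In IL-6 family signalling 3 of 11 log2 fold changes were positive and 8 negative, with a median of -0.17. Without PKP2_het replicate 3 the median was -0.04, with 4 positive. IL11RA, the receptor chain for interleukin 11, had 28.8 ± 2.64 FPKM (SD, n = 4) in PKP2_het and 22.6 ± 0.974 FPKM in WT (limma adjusted p = 0.197). STAT3, the transcription factor downstream of gp130, had a log2 fold change of -0.34 ± 0.16 (SE; limma adjusted p = 0.421), and -0.19 without PKP2_het replicate 3.

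In the NF-kB core and its upstream kinases 5 of 24 log2 fold changes were positive and 19 negative, with a median of -0.11, where 54.3% of all tested genes were negative. The subunit RELA was at 20.7 ± 2.34 FPKM (SD, n = 4) in PKP2_het and 22.2 ± 1.65 FPKM in WT, and TRAF2, an adaptor of the TNF receptor, at 6.72 ± 1.06 FPKM and 8.49 ± 0.899 FPKM. The limma adjusted p was 0.742 for RELA and 0.349 for TRAF2. Without PKP2_het replicate 3, 8 of the 24 were positive. The other inhibitors were split, 7 positive and 10 negative, and without PKP2_het replicate 3 the split was reversed, with 10 of 17 positive. All 10757 tested genes shifted the same way, from 4911 positive with all libraries to 5537 without PKP2_het replicate 3. NFKBID, a nuclear relative of IkB-alpha, had 1.55 ± 0.607 FPKM (SD, n = 4) in PKP2_het and 0.818 ± 0.108 FPKM in WT (limma adjusted p = 0.211).

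IER3, an early response gene that NF-kB induces, was the 1 gene of these lists that was called, and it was higher in PKP2_het. Its level was 20.4, 22.6, 16.95 and 21.8 FPKM in PKP2_het and 12.8, 10.8, 7.17 and 12.7 FPKM in WT, without overlap. For IER3 the log2 fold change was 0.88 ± 0.18 (SE), with a limma adjusted p of 0.0400, and the call was lost in 9 of 20 alternative settings. IER3 also belongs to a list of immediate early genes that tissue handling can raise, whose sum was 288, 465, 267 and 485 FPKM in PKP2_het and 473, 267, 193 and 237 FPKM in WT. Of the 11 tested genes of that list 9 were positive, all 11 without PKP2_het replicate 3, and 3 had an unadjusted limma p below 0.05. Besides IER3 these were DUSP1, a phosphatase of MAP kinases, and JUND, an AP-1 transcription factor. DUSP1 was at 50.2, 69.8, 35.1 and 99.5 FPKM in PKP2_het and 39.3, 34.97, 21.1 and 20.5 FPKM in WT, with overlap (limma adjusted p = 0.178). JUND was at 44.95, 54.2, 49.5 and 54.01 FPKM in PKP2_het and 42.1, 35.04, 29.99 and 25.2 FPKM in WT, without overlap (limma adjusted p = 0.104). The part of handling in IER3 was not tested. PLAU (urokinase, a matrix protease activator) had a log2 fold change of 0.41 ± 0.14 (SE) with a limma adjusted p of 0.214. ICAM1, the leukocyte adhesion molecule, had 8.22 ± 1.98 FPKM (SD, n = 4) and 6.88 ± 1.47 FPKM, with a limma adjusted p of 0.643. Of the 12 targets 7 were positive and 5 negative, with a median of 0.08.

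Among the enzymes and proteoglycans that cut, hold or release chemokines, 2 of 13 log2 fold changes were positive and 11 negative, with a median of -0.06. The syndecans, which carry the heparan sulphate that binds chemokines, differed in sign. SDC3 had a log2 fold change of -0.34 ± 0.15 (SE) and SDC4 one of 0.31 ± 0.14 (SE; 0.21 without PKP2_het replicate 2), with limma adjusted p-values of 0.360 and 0.384.

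**Figure D5:**
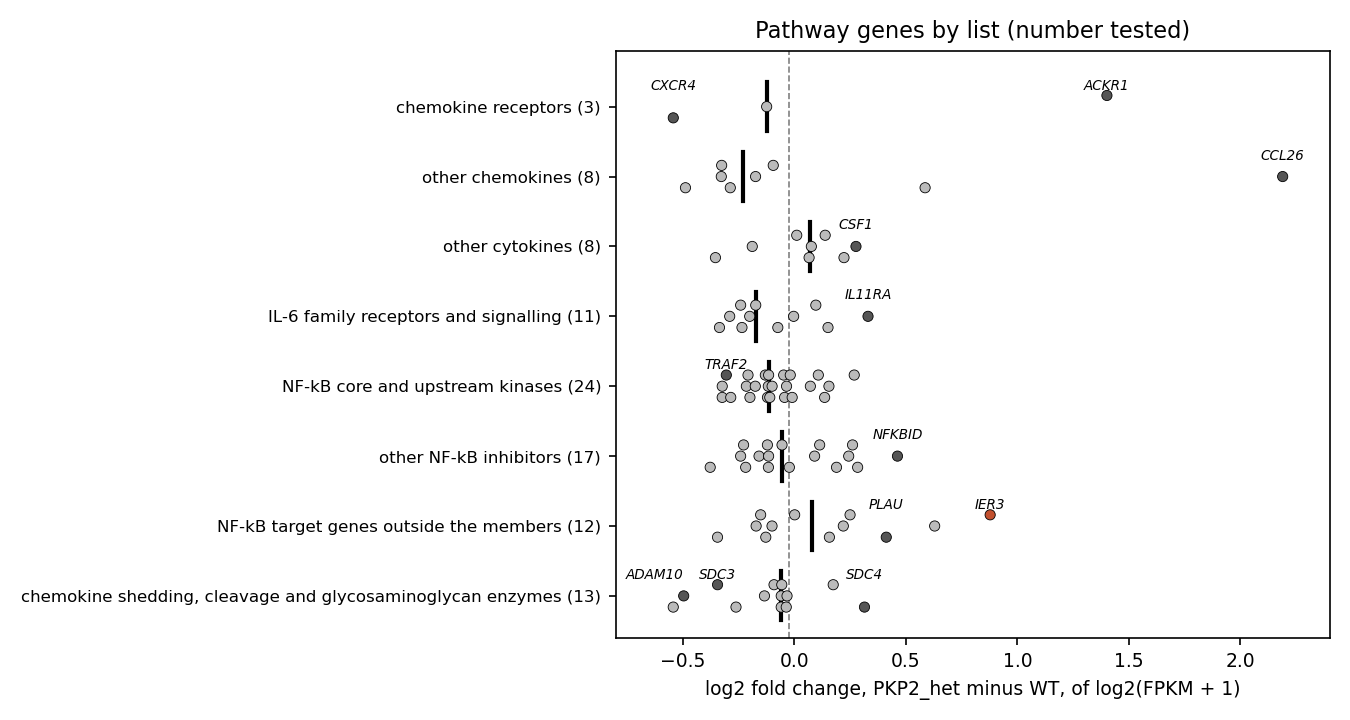
Log2 fold change (horizontal axis, PKP2_het minus WT on log2(FPKM + 1)) of each tested gene in the 8 lists (rows, number tested in parentheses), with black bars at list medians and a dashed line at the median of all genes, -0.02. Dark points have an unadjusted limma p below 0.05 and the red point, IER3, an adjusted p below 0.05, and the points farthest to the right are CCL26 at 2.19 and ACKR1 at 1.401.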

How the data were processed

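The deposited table, made by the authors, gives FPKM per gene for 4 PKP2_het and 4 WT libraries; groups and replicate numbers come from the sample titles. The aligner was HISAT2 2.0.5, per the submitters' processing notes. For the counter, the annotation and the scaling, nothing is given in the sources used here. FPKM times gene length, divided by a step fitted for each library, gave whole fragments, within 0.01, for 100% of values. Libraries held 23637697 to 31313628 fragments. Positions matched RefSeq Sscrofa11.1 for 30335 genes.

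The 10757 genes that reached 1 FPKM in 4 or more libraries were compared on log2(FPKM + 1) with limma 3.58.1 in R 4.3.3 (variance trend, two-sided, Benjamini-Hochberg adjustment over all of them, threshold 0.05). The pseudocount of 1 understates changes of low genes. Exact permutation tests (two-sided, 70 relabellings) were run on single genes. Their p-values are unadjusted unless an adjusted value is given. Relations across libraries used all 40320 pairings. The fit was tested on simulated data with the same spread setting for all genes and no library standing apart, unlike the libraries here. The genes, lists and tests were chosen with earlier results of these data known. Named genes are the chemokine, IL6 and NF-kB inhibitor genes, their receptors, up to 3 genes with the smallest p per list and any called, and the 3 most similar genes for the 3 highest; ADAM17, RELA, ICAM1, DUSP1, JUND, FABP4 relations and CXCL2 neighbours were added after values were seen. Alternatives covered pseudocounts, filters, scaling, variance models, library weights, voom, a replicate block and leaving out libraries. A receptor among the named genes is not reported here. No sequence table was used.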

Additional observations from a re-analysis of the deposited data

Results flagged for a closer look

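Among 22 groups of 4 libraries tested for a single library far from the others, 3 had one, where chance gives about 1 in 20. CXCL16 was at 0.804 FPKM in PKP2_het replicate 1, where the rest of the group ranged from 1.28 to 1.37 FPKM. IL6 was at 0.783 FPKM in PKP2_het replicate 3, against 0.0316 to 0.0982 FPKM in the others of that group. NFKBIA was at 52.8 FPKM in WT replicate 1, against 31.8 to 35.1 FPKM in the other WT libraries.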

How the results depend on the processing

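Over all genes 200 were called. The count was 86 with 1 FPKM required in all 8 libraries, 659 with library weights and 363 with voom on recovered fragments without a filter, an alternative chosen after seeing the data. With equal FPKM sums it was 96 (49 higher and 47 lower), against 124 higher and 76 lower in the deposited scaling. Replicate numbers did not pair the libraries: deviations of same-numbered libraries correlated at -0.39, 0.03, -0.23 and 0.20 for replicates 1 to 4, and only PKP2_het replicate 4 correlated best with its own number. With the replicate block 105 genes were called. Leaving out 1 library gave 115 (without WT replicate 4) to 314 (without PKP2_het replicate 3), with 132 without PKP2_het replicate 1 and 119 without WT replicate 2. Of the chemokine, IL6 and NF-kB inhibitor genes, 1 (CXCL2) was called with library weights and 0 in every other setting run, the replicate block included. Outside these genes, CSF1 and SDC4 were each called in 1 of 20 alternative settings, and PKP2, DUSP1 and JUND each in 2 of 20. With equal FPKM sums the log2 fold change of CSF1 was 0.0662. Signs reversed for CCL2 (-0.0314) and TNFSF12 (-0.0394) with equal FPKM sums and for CXCL14 (-0.0222) and ACKR3 (0.0045) with library weights. Leaving out 1 library gave -0.41 to 0.18 for NFKBIA and reversed it without PKP2_het replicates 1 (0.18) or 4 (0.09) or WT replicate 1 (0.10). The same gave -0.33 to 0.0393 for ACKR3, reversed without PKP2_het replicate 4 (0.0393) or WT replicate 3 (0.0085), and -0.0159 to 0.247 for IL6, reversed without PKP2_het replicate 3. The cause was not tested. Depth limits IL6, CXCL8 and CCL5, with at most 48 fragments per library.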

Other observations

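PKP2_het replicate 3 and WT replicate 1 had the highest mitochondrial shares of their groups, 52.1% and 37.6%, and their deviations from the group means correlated at 0.457 over genes, the highest of the 16 pairs of a PKP2_het and a WT library. Both were the highest library of their group for CXCL2, ACKR1, NFKBIA and IL6. Of the summed marker lists, only the endothelial sum (555 and 607 FPKM) and the adipocyte sum (94.8 and 179 FPKM) were highest in both. CCL14, a chemokine of vessel walls and the most abundant of the other chemokines, was also highest there, at 48.6 and 41.6 FPKM against 20.1 to 28.5 FPKM in the remaining 6 libraries. Without both, a setting chosen after seeing the data, the log2 fold change of CXCL2 was 1.25 with a limma adjusted p of 0.0505.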
